A study of Rattus norvegicus and Mus musculus with 9 samples.

Results

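Nodal and activin signalling was described in embryonic stem (ES) cells of the rat and the mouse and in fibroblasts of rat embryos through 10 genes chosen by name: the ligand gene Nodal, the antagonist genes Lefty1, Lefty2 and Cer1, the receptor genes Acvr1b, Acvr2a and Acvr2b, and the intracellular genes Smad2, Smad3 and Foxh1. A named probe set was found for 9 of them among 14506 rat genes, Cer1 being the exception, and for all 10 among 19938 mouse genes. Each of these genes had 1 probe set per table. Total RNA was hybridized with 1 sample per array and 3 arrays per group. ES cells are pluripotent lines taken from early embryos, and fibroblasts are cells of connective tissue that make matrix. The rat ES cells, of strain DA, grew in a medium called 3I, by which media with small-molecule inhibitors of the FGF receptor, of MEK and of GSK3 are known. The rat fibroblasts, also of strain DA, grew in GMEM with fetal bovine serum. Mouse ES cells came from strain C57/BL6 and grew in GMEM with serum and leukaemia inhibitory factor (LIF), and their feeder cells were taken away before RNA was extracted. No removal of feeders is stated for the rat ES cultures, and the sources used here do not give the number of lines or whether replicate arrays stand for separate cultures. P-values therefore measure the spread among arrays alone, and that spread may be technical. Medium differed along with cell type in the rat comparison, and the effects of each cannot be told apart.

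Nodal is a secreted ligand of the TGF-beta family. It binds activin receptors, which pair a type II receptor (Acvr2a or Acvr2b) with a type I receptor (Acvr1b or Acvr1c) and, for Nodal, require a coreceptor such as Cripto (Tdgf1). The type I receptor phosphorylates Smad2 and Smad3, which enter the nucleus with Smad4 and act on target genes together with partners such as Foxh1. Nodal itself and the Lefty genes are targets of the pathway, and Lefty and Cerberus (Cer1) proteins block Nodal outside the cell, so that the pathway limits its own signal. In the embryo the pathway patterns the epiblast and induces mesoderm and endoderm.

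Both cell labels were checked against defining markers. In rat ES cells all 6 measured pluripotency markers were called higher (means of 8.46 to 11.35 on the log2 scale), and all 9 fibroblast markers were called lower. A call here means a limma adjusted p under 0.05 and a difference of at least 2-fold, that is 1 on the log2 scale. Calls made up 20.7% of 14506 genes, with 10.6% higher and 10.1% lower in rat ES cells. All 2996 genes that differed at least 2-fold passed the adjusted p, so the fold decided the calls. Array medians lay between 5.71 and 5.74 in the rat table, and a signal under them could not be separated from background here. Precision is limited by the number of arrays.

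Of the 9 members measured in the rat, Nodal, Lefty1, Acvr1b, Acvr2b and Foxh1 (5 genes) were called higher in the ES cells and Smad3 was called lower. Under the same rule 10.6% of all genes were called higher and 10.1% lower. The other 3, Lefty2, Acvr2a and Smad2, differed by less than 2-fold. The median log2 difference over the 9 members was 1.17, against -0.001 over all genes. Members were chosen with earlier results of these data known, so values set beside all genes are descriptive only. In all 9 members the 2 groups of arrays did not overlap, as they did not in 61.5% of all genes. With no fold threshold, 7 members passed the adjusted p as higher and 2 as lower, where 30.9% and 25.5% of all genes did so, 56.3% in either direction.

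**Figure D1:**
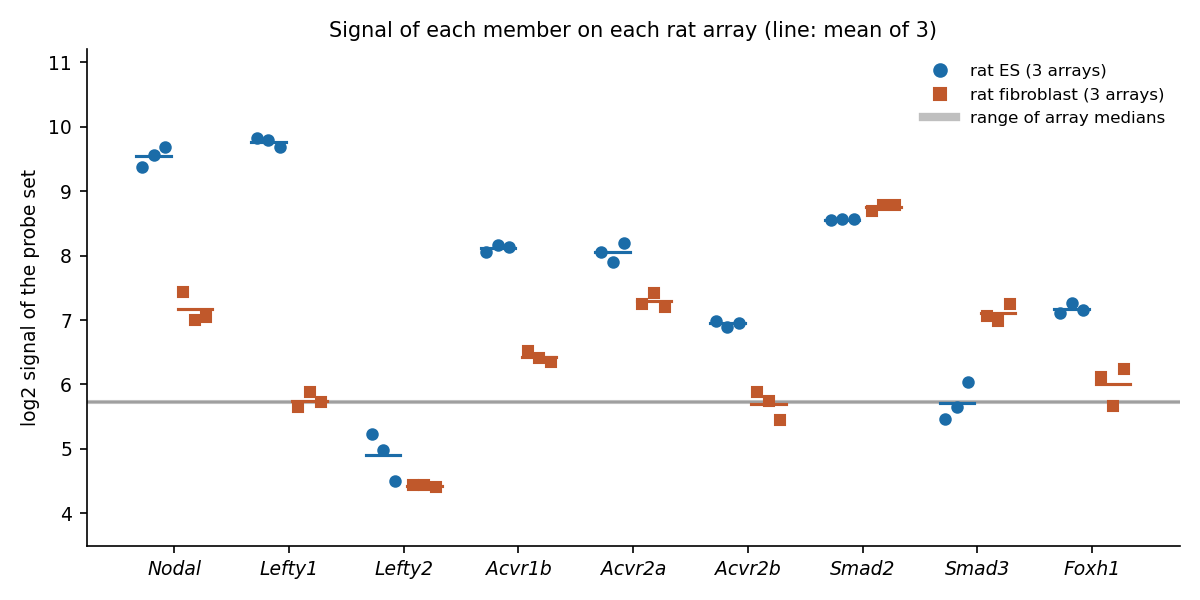
Log2 signal of the 9 members measured in the rat (vertical axis) on the 3 rat ES arrays (circles) and the 3 fibroblast arrays (squares), with a line at each mean and a grey band over the range of array medians. Lefty1 has the widest gap between the groups, from 9.77 to 5.75, and Lefty2 lies below the band on all 6 arrays.

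The ligand gene Nodal had rat ES signals of 9.38, 9.57 and 9.68 on the log2 scale, and fibroblast signals of 7.43, 7.01 and 7.05. The groups were well apart, and the fibroblast signals still lay above the array medians. The difference was 2.38 (SE 0.13, n = 3 arrays per group, limma adjusted p = 7.43e-07), a 5.19-fold higher signal in rat ES cells.

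The promoter of Nodal is shown because Nodal is the ligand gene among the members, was called higher and is a known target of its own signal. The window covers 250 bases before and 50 after the RefSeq start, at chr20:29911008-29911307 on the + strand. It is taken from the RefSeq promoter table of build GRCr8. Capitals mark a match to the SMAD box CAGAC.
Nodal: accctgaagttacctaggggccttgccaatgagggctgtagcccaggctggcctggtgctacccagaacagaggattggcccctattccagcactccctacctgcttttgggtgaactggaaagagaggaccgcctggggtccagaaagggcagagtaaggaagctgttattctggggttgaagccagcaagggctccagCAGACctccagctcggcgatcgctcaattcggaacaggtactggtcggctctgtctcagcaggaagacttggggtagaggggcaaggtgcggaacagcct
The match begins 50 bases before the start. Both strands were searched for CAGAC, for the SMAD palindrome GTCTAGAC and for the FOXH1 box AATNNACA, none of which overlap here. The window held 1 SMAD box and no match to the other motifs. Sequence of Nodal outside this window was not searched, so sites elsewhere in the gene are not covered. Among all 33469 promoters of this length, 50.1% held CAGAC, 12.8% AATNNACA and 0.197% GTCTAGAC. A match is only a run of letters, and binding was not measured.

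Of the antagonists, Lefty1 and Lefty2 differed in their values. Lefty1 had rat ES signals of 9.83, 9.79 and 9.68 and fibroblast signals of 5.64, 5.88 and 5.72. Every rat ES array was far above every fibroblast array, and the fibroblast arrays were at the level of the array medians, so the size of the difference is uncertain on that side. The log2 difference was 4.02 (SE 0.083, limma adjusted p = 5.28e-09), or 16.2-fold. Lefty2, a close paralogue, had rat ES signals of 5.23, 4.98 and 4.50 and fibroblast signals of 4.44, 4.44 and 4.41. All 6 values lay under the array medians, and rat ES array 3 came within 0.1 of the fibroblast arrays. The log2 difference was 0.47 (95% confidence interval 0.10 to 0.84, limma adjusted p = 0.0351), under 2-fold, and leaving out 1 array at a time moved it between 0.31 and 0.67, with an adjusted p above 0.05 in 5 of 6 cases. For Lefty2, low expression cannot be told apart from an unresponsive probe set, and whether the probes of the paralogues separate their transcripts is not given in the sources used here. Cer1, the third antagonist, was measured only in the mouse.

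The receptor genes were all higher in rat ES cells on average. Acvr1b, the type I receptor ALK4, had signals of 8.06, 8.16 and 8.14 in rat ES cells and 6.51, 6.41 and 6.35 in fibroblasts. Neither group spread by more than 0.2, and the log2 difference was 1.70 (SE 0.073, limma adjusted p = 1.97e-07), or 3.24-fold. The type II receptor gene Acvr2b had 6.99, 6.89 and 6.96 in rat ES cells and 5.88, 5.74 and 5.45 in fibroblasts. The fibroblast arrays straddled the array medians, and the log2 difference was 1.25 (SE 0.11, limma adjusted p = 1.35e-05). The size of this difference is uncertain on the fibroblast side. The other type II receptor gene, Acvr2a, had 8.06, 7.90 and 8.19 in rat ES cells against 7.25, 7.42 and 7.21 in fibroblasts. Its groups did not overlap, but the log2 difference of 0.75 (95% confidence interval 0.54 to 0.97, limma adjusted p = 1.47e-04) was under 2-fold.

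Of the intracellular members, Foxh1 was called higher, Smad3 was called lower and Smad2 was not called. Smad2, a receptor-activated effector, had 8.55, 8.56 and 8.56 in rat ES cells and 8.69, 8.79 and 8.78 in fibroblasts. The difference was small beside those of the other members, at -0.19 (95% confidence interval -0.34 to -0.05, limma adjusted p = 0.0307), and the adjusted p was above 0.05 in 5 of 6 fits that left out 1 array. Smad3, the related effector, had 5.46, 5.64 and 6.04 in rat ES cells and 7.07, 6.99 and 7.25 in fibroblasts. It fell by 1.39 (SE 0.15, limma adjusted p = 4.58e-05). As 2 of the 3 rat ES arrays lay under the array medians, the size of this difference is uncertain on the rat ES side. Foxh1, the DNA-binding partner of the Smads, had 7.10, 7.26 and 7.16 in rat ES cells and 6.11, 5.67 and 6.24 in fibroblasts. Fibroblast array 2 was the lowest. The log2 difference was 1.17 (SE 0.14, limma adjusted p = 1.01e-04), and it came down to 1.00, at the 2-fold threshold, without that array.

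The rat ES arrays differed in fibroblast markers, and Smad3 had its lowest and highest values on the same arrays as most of them. All 9 fibroblast markers were lowest on rat ES array 1 and 8 of the 9, all but Thy1, were highest on array 3, as was the case for Smad3. Of all 14506 genes, 8016 were higher on array 3 than on array 1. So were 1021 of the 1458 genes called lower in rat ES cells, so Smad3 shared this direction with most of them. The summed signal of the markers ran from 11.05 to 11.76 on the log2 scale over the rat ES arrays, against 15.78 to 15.85 over the fibroblast arrays. Thy1, Pdgfra and S100a4 had rat ES means under the array medians, and Col1a1 was at 9.71, 10.17 and 10.56. Nodal was also lowest on rat ES array 1 and highest on array 3, with 0.30 between them, while Lefty1 was lower on array 3 by 0.15. The Smad3 difference was -1.55 without rat ES array 3 and -1.26 without array 1, and the call held in both cases. The part of fibroblast RNA in these values was not tested, and in such bulk samples fewer cells of a type and less RNA per cell cannot be told apart.

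**Figure D2:**
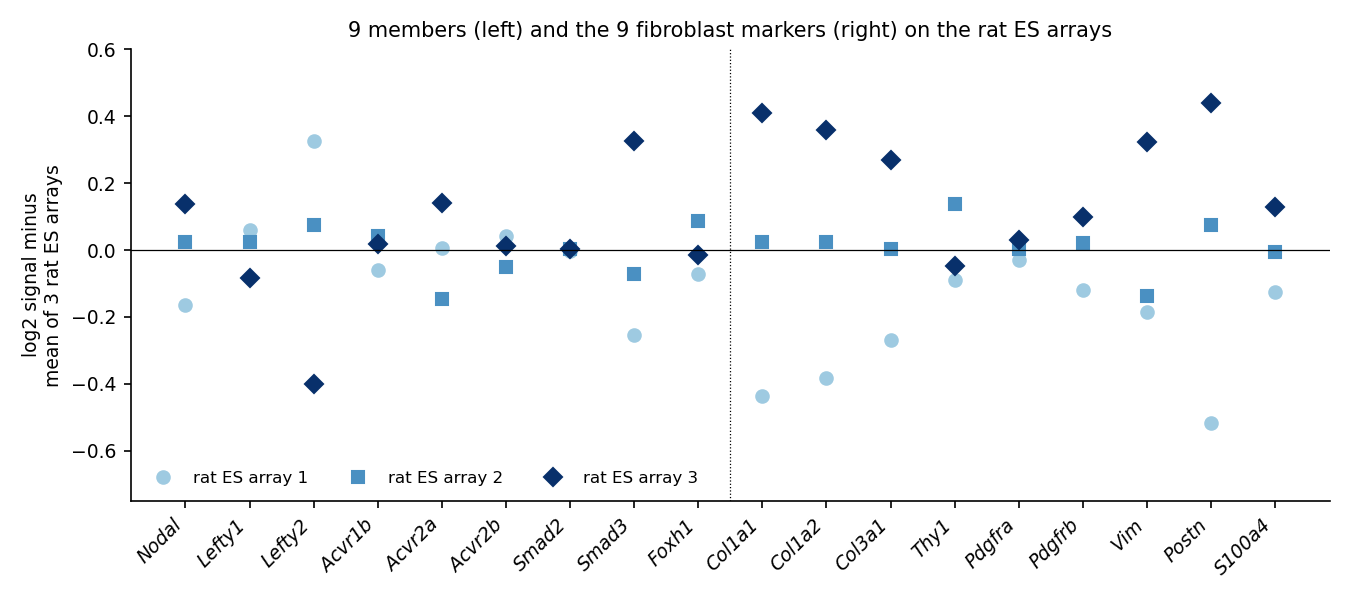
Log2 signal on each rat ES array minus the mean of the 3 rat ES arrays (vertical axis), for the 9 members at the left and the 9 fibroblast markers at the right. Smad3 and the markers Col1a1, Col1a2, Col3a1, Vim and Postn have array 3 highest and array 1 lowest, Smad2 hardly varies, and Lefty2 has array 1 highest.

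Markers of other cells that can carry Nodal signals were read beside the members. Of 9 primitive and visceral endoderm markers, Hnf4a was called higher and Dab2 and Gata6 lower in rat ES cells, and 8 of the 9 had rat ES means under the array medians. The summed signal of that list was 8.56 to 8.69 over the rat ES arrays and 10.24 to 10.32 over the fibroblast arrays. Dab2 alone had fibroblast signals of 9.68, 9.67 and 9.68. Of 4 measured primitive streak markers, Tbxt was called higher. Of 4 measured epiblast markers, Zic2 (4.82) and Dnmt3b (2.55) were called higher. Fgf5 (-0.47) and Pou3f1 (-0.02) were not called, and all Fgf5 signals lay under the array medians. The trophoblast list of 5 had Gata3 called lower (-1.71), and Tfap2c (3.34) and Cdx2 (3.80) called higher. Fibroblast signals of Zic2, Dnmt3b, Tfap2c and Cdx2 and rat ES signals of Gata3 lay under the array medians, so these sizes are uncertain. Signals summed over the streak list were 7.92 to 8.19 in rat ES cells and 7.80 to 7.93 in fibroblasts. Those of the epiblast list were 10.15 to 10.34 and 7.30 to 7.51. Those of the trophoblast list were 9.85 to 9.94 and 8.07 to 8.27. Over all genes, 10.6% were called higher and 10.1% lower. The part of such cells in the values of the members was not tested.

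The RefSeq promoter table held 7 of the 10 members. The windows of the 2 receptor genes called higher and of Smad3, the member called lower, are shown for comparison with Nodal, in which 7 CpG dinucleotides stood in 300 bases of 58.3% G+C. They lie at chr7:134164751-134165050 on the + strand (Acvr1b), chr8:128016513-128016812 on the + strand (Acvr2b) and chr8:73132275-73132574 on the - strand (Smad3) of GRCr8. None of the 3 held a match to any of the motifs searched in Nodal, so none has capitals. Of the members in the table whose windows are not shown, Cer1 held 1 FOXH1 box, a motif found in 12.8% of all promoters. Cer1 had no named rat probe set, so this match cannot be set beside a call. The windows of Acvr2a and Smad2 held no match.
Acvr1b: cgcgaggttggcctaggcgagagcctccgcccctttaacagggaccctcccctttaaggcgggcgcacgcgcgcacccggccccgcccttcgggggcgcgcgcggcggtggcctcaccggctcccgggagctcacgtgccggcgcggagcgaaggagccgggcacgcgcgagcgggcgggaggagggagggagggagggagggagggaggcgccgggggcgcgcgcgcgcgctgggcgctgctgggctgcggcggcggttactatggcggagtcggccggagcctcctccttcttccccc
Acvr2b: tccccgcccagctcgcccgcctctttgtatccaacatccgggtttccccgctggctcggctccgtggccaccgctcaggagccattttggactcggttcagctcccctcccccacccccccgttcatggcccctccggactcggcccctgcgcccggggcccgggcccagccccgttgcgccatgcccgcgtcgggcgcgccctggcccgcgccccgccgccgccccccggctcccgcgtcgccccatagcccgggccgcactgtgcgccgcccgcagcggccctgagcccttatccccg
Smad3: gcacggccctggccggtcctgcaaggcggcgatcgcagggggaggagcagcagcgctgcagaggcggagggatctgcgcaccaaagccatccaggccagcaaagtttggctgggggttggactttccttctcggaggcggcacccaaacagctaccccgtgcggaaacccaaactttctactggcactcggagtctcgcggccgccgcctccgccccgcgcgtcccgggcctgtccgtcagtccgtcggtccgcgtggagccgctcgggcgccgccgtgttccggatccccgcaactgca
These windows were rich in CpG, with 45 CpG dinucleotides in Acvr1b, 38 in Acvr2b and 34 in Smad3, against a median of 7 over all promoters in the table. Their G+C content was 78.0%, 77.3% and 69.7%, against a median of 51.7%. Base composition did not follow the calls over the members in the table: both windows of Smad2, which was not called, held 52 CpG each, and that of Acvr2a, which differed by less than 2-fold, held 19 with 51.0% G+C.

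The other genes of the pathway were read from a list of 42, of which 30 had a rat probe set. This list, too, was fixed with earlier results of these data known. In rat ES cells 6 of these 30 were called higher, 9 were called lower and 15 were not called. Their median log2 difference was -0.20. Of all genes, 10.6% were called higher and 10.1% lower, 20.7% in either direction. Among ligands, Gdf3, a Nodal-like factor of pluripotent cells, was higher by 5.45 (SE 0.073), with 8.69 in rat ES cells and 3.25 in fibroblasts, far under the array medians, so the size of the difference is uncertain on that side. The activin A subunit gene Inhba fell by 3.46 (SE 0.13), from 8.31 in fibroblasts to 4.85 in rat ES cells, where it too lay under the array medians. Inhbb (-0.39), Inhbc (-0.10) and Inhbe (-0.12) were not called. Among the ligand genes, Gdf3 and Nodal were thus called higher in rat ES cells and Inhba lower.

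None of the 5 other antagonists was called higher. The activin-binding proteins Fst (-1.33, SE 0.21) and Fstl3 (-2.40, SE 0.080) were called lower in rat ES cells, and Inha (-0.93), Bambi (-0.70) and Tmeff1 (-0.49) were not called. With Lefty1, 1 of the 7 antagonists measured in the rat was called higher, a share near the 10.6% of all genes. Fst, too, was lowest on rat ES array 1 (5.02) and highest on array 3 (5.76), with a rat ES mean of 5.30 under the array medians. The 3 convertase genes, whose products cut pro-proteins of this family, were all called lower, Pcsk5 by -1.58, Pcsk6 by -1.20 and Furin by -1.05. Of all genes, 10.1% were called lower. Pcsk5 had a rat ES mean of 5.22, so the sizes of its difference and of that of Fst are uncertain on the rat ES side. Furin lost its call under another centring (-0.98) and without fibroblast array 2 (-0.997).

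Of the other receptors, Acvr1c, the type I receptor ALK7, was higher by 1.15 (SE 0.15), with a fibroblast mean of 5.46 under the array medians, and Acvr1, a type I receptor used mainly by BMP ligands, was lower by a log2 difference of -2.65 (SE 0.12). Among 8 intracellular genes, the corepressor genes Tgif1 (1.05) and Tgif2 (1.19) were called higher and Smurf2, which encodes a ubiquitin ligase for pathway proteins, lower (-1.53). The shares over all genes were 10.6% higher and 10.1% lower. Tgif1 came to 0.98 after quantile normalization. The shared effector gene Smad4 had a mean of 9.72 in rat ES cells and 9.73 in fibroblasts (95% confidence interval of the difference -0.16 to 0.13), and the inhibitory Smad7 differed by 0.50. Drap1 (-0.44), Zfyve9 (0.18) and Ppm1a (0.02) were not called either.

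Of 7 measured genes listed as targets, the mesoderm factor gene Tbxt and Dact2, which encodes an inhibitor of Nodal signalling, were called higher. Calls over all genes were 10.6% higher and 10.1% lower. Tbxt had rat ES signals of 5.76, 6.56 and 6.61 and fibroblast signals of 4.53, 4.59 and 4.46, a log2 difference of 1.78 (SE 0.20). Rat ES array 1 stood below the other rat ES arrays, near the array medians, and all 3 fibroblast arrays were under them, so the size of the difference is uncertain. Dact2 differed by 1.36 (SE 0.11), with a fibroblast mean of 5.66 just under the array medians. Pmepa1, a target of TGF-beta and activin that restrains Smad signalling, was lower, with 7.62 in rat ES cells and 11.14 in fibroblasts (log2 difference -3.52, SE 0.094). The mesendoderm genes Mixl1 (-0.20), Foxa2 (-0.20), Sox17 (-0.19) and Lhx1 (-0.13) were not called, and their rat ES means of 4.72 to 5.45 lay under the array medians.

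**Figure D3:**
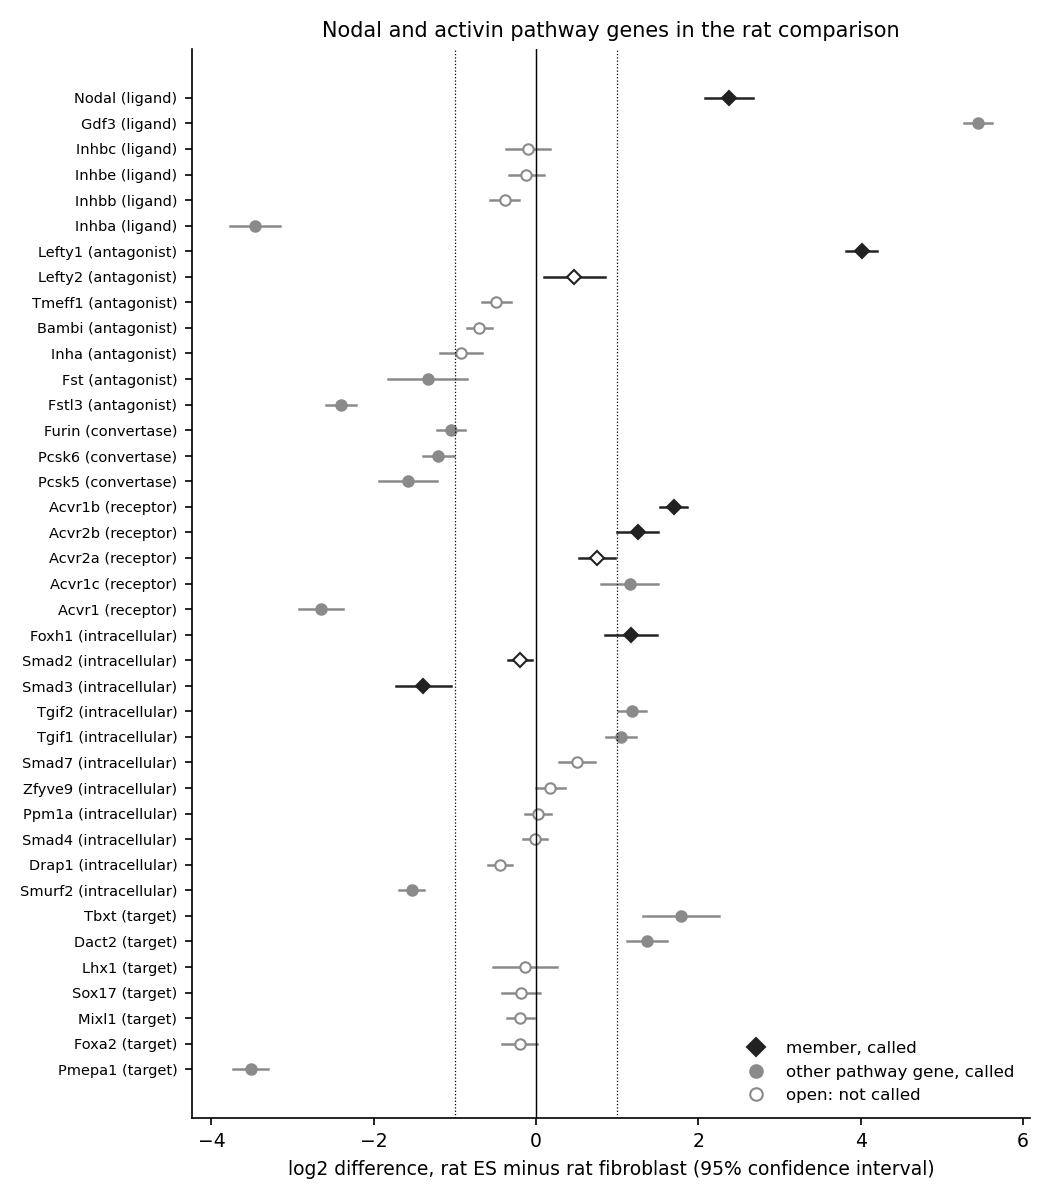
Log2 difference of rat ES minus rat fibroblast (horizontal axis) with its 95% confidence interval for the 9 members (diamonds) and 30 other pathway genes (circles), ordered by role, with dotted lines at 2-fold and open symbols where a gene was not called. Lefty1 at 4.02 and Gdf3 at 5.45 lie farthest to the right, and Inhba at -3.46 and Pmepa1 at -3.52 farthest to the left. Fibroblast signals of Gdf3 and rat ES signals of Inhba lie under the array medians, so the sizes of those differences are uncertain.

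In the mouse the members were read as percentiles, the share of 12114 symbols common to both tables whose signal on that array was at or below that of the member. The mouse values carry a limit of their own: 11681 of 21789 named mouse probe sets, and 6 of the 10 members, had the same value on all 3 arrays. The 3 mouse arrays may thus not be separate measurements, no SD over them is given, and their percentiles move mainly with the other genes. The mouse arrays are of another platform and were normalized separately, so no difference between mouse and rat was tested, and probe sets of a gene may respond differently on each. Medium also differed between mouse and rat ES cells, and removal of feeders is stated for the mouse only.

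Nodal and Lefty1 stood high in both ES cells. Nodal was at percentiles 89.2 to 90.3 on the mouse ES arrays, 90.8 to 93.0 on the rat ES arrays and 55.0 to 63.0 on the fibroblast arrays. Lefty1 was at 91.7 to 92.7 in mouse ES, 93.1 to 94.0 in rat ES and 33.4 to 37.5 in fibroblasts. For both genes the ES cells of the 2 species lay within a few percentiles of each other. Lefty2 was at 52.4 to 54.4 in mouse ES, with signals of 6.13, 5.98 and 6.13, against 14.8 to 27.5 in rat ES and 12.4 to 13.9 in fibroblasts. Cer1 was at 24.5 to 25.2 in mouse ES, where its signal was 4.42 on every array, under the mouse array medians of 4.75 to 4.77.

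The receptors took different orders. Acvr1b was at 64.6 to 65.3 in mouse ES, between rat ES (73.1 to 74.2) and fibroblasts (44.1 to 46.8). Acvr2b was highest in mouse ES (69.9 to 71.5), then rat ES (53.2 to 54.9) and fibroblasts (29.8 to 36.9). Acvr2a was likewise above fibroblasts (59.0 to 62.6) in rat ES (69.7 to 74.7), but was lowest in mouse ES (43.5 to 50.4). Smad2 was at 68.8 to 70.2 in mouse ES, 80.4 to 80.7 in rat ES and 83.4 to 84.7 in fibroblasts. Smad3 was at 61.6 to 62.7 in mouse ES and 54.8 to 60.0 in fibroblasts, both above the 31.4 to 40.4 of rat ES. Foxh1 was at 71.2 to 72.9 in mouse ES, 56.9 to 59.0 in rat ES and 34.2 to 42.4 in fibroblasts. Among the other pathway genes, the coreceptor gene Tdgf1, which had no named rat probe set, was at 99.6 on each mouse array. Gdf3 was at a mean of 96.4 in mouse ES and 82.5 in rat ES, and Inhba at 23.7 and 20.8. Acvr1c was at a mean of 10.1 in mouse ES and 49.2 in rat ES. The mouse ES signals of Inhba (4.35) and Acvr1c (3.39) lay under the mouse array medians.

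**Figure D4:**
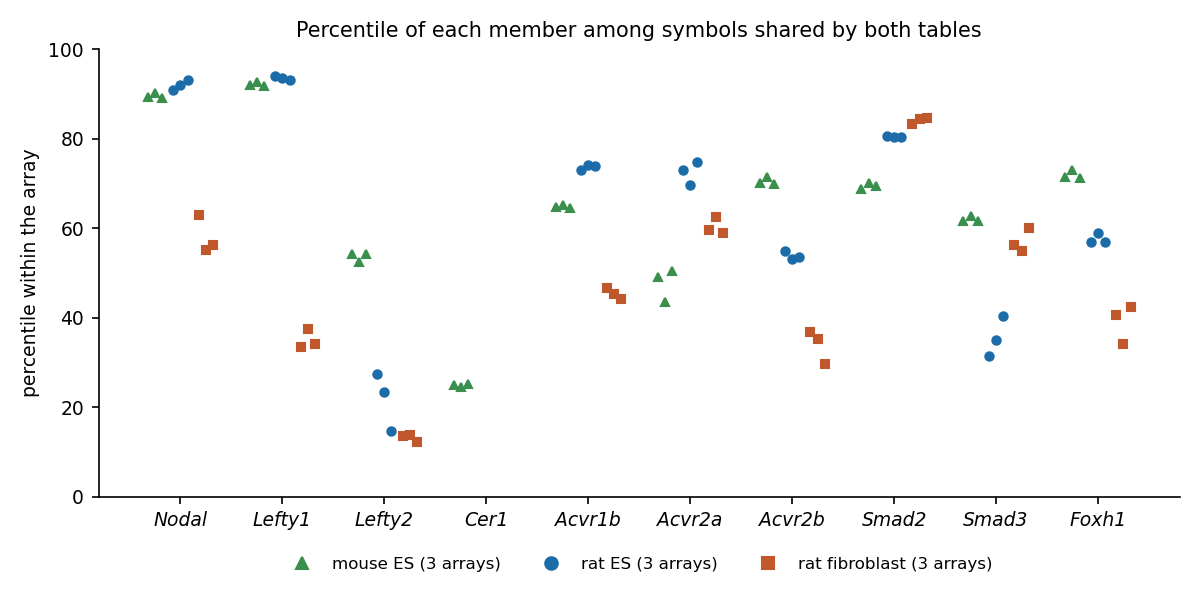
Percentile of each member within each array (vertical axis, 0 to 100) among the symbols common to both tables, for the 3 mouse ES arrays (triangles), the 3 rat ES arrays (circles) and the 3 rat fibroblast arrays (squares). Nodal and Lefty1 lie near 90 in both ES cells, and Cer1 has mouse values only. Percentiles of Lefty2, Acvr2b, Smad3 and Foxh1 are higher in mouse ES than in rat ES, and those of Acvr1b, Acvr2a and Smad2 lower. Platform and medium differ along with species.

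Genes with the profile most like that of Nodal and of Lefty1 were taken by the Euclidean distance over the 6 rat arrays between log2 signals, each minus the mean of the gene. With 2 groups of arrays such a list mostly holds genes of the same difference. Nearest to Nodal were Lsr (distance 0.22), Cpne8 (0.23), Itga7 (0.26), Tjp3 (0.27) and Map4k1 (0.30), whose log2 differences ran from 2.29 to 2.48. Nearest to Lefty1 were Lef1 (0.23), Ablim1 (0.27), Rhag (0.28), Spint1 (0.32) and Cldn6 (0.32), with differences from 3.80 to 3.96.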

How the data were processed

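Total RNA of 6 rat and 3 mouse samples was hybridized as biotin-labelled single-stranded DNA, per the labels' protocols. For each species the authors deposited 1 table of log2 signals by probe set. The scale was read from the range of the values. The sources used here do not give background correction, normalization, probe summary or build. No further normalization was applied.

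Probe sets were named by an annotation of the platform that may be outdated. Among 29215 probe sets of the rat, 15310 had 1 symbol, 323 several and 13582 none listed, and of 35557 mouse probe sets 21789, 1621 and 12147. Only those with 1 symbol were kept, and for a symbol with several the probe set of the highest mean.

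The test between rat groups was limma's (version 3.58.1, R 4.3.3; lmFit, eBayes, group only, no filter), with Benjamini-Hochberg adjustment over all 14506 genes, after a check on simulated data. Members and lists were chosen with earlier results of these data known. Named are all members, the list genes by call, and the 5 nearest profiles of Nodal and Lefty1. Replicate numbers were not used to pair the samples in the main fit. Deviations of same-numbered arrays correlated at -0.00044, 0.031 and -0.0003, which cannot show whether those samples were handled together. Alternatives were normalization, centring, a filter, the probe set rule, eBayes settings, a block, no fold threshold and leaving out arrays.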

Additional observations from a re-analysis of the deposited data

How the results depend on the processing

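Quantile normalization, median centring and each left-out array gave the same 5 and 1 counts of members called higher and lower. A filter that left out genes under the 25th percentile of mean signal gave them too. So did both other probe set rules and eBayes with trend and robust settings. The fit with the replicate block also gave 5 and 1, with 2996 of all genes called. The filter, eBayes settings and block do not change a log2 difference, nor do the probe set rules for members with 1 probe set. The fold decided the calls, so these settings could move the counts only through the adjusted p or by removing a member. With no fold threshold the counts were 7 and 2 members, 8172 genes of all and 15 other pathway genes lower. Leaving out 1 array gave 2994 to 3035 genes called, and 8 to 10 other pathway genes called lower. The filter removed Lefty2, which then had no value. The median percentile was 67.2 over the 10 members in mouse ES cells and 72.5 over the 9 in rat ES cells, and 74.8 and 75.2 among all named genes. Over the 9 members measured in both, the mouse median was 69.5. With all probe sets of a symbol averaged, the median over the 10 members in mouse ES cells was 67.8. The percentile of single members in mouse ES cells rose by 2.17 to 11.1 points among all named genes. The array platform gave no detection calls here, so differences with 1 group mean under the array medians have an uncertain size. Among called genes this holds for Acvr2b, Gdf3, Inhba, Fst, Pcsk5, Acvr1c, Tbxt and Dact2. The rat ES mean of Smad3 (5.71) lay within the range of array medians and the fibroblast mean of Lefty1 (5.75) just above it, so their sizes are uncertain too. For Lefty2 both groups lie under the array medians.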

Other observations

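The protein-coding genes next to the Lefty genes in the RefSeq gene table were looked up after the values of the Lefty genes were seen. Any gene of this stretch without a named rat probe set was left out. Tmem63a, which follows Lefty1, had rat ES signals of 8.84, 8.87 and 8.77 and fibroblast signals of 6.66, 6.47 and 6.57, a log2 difference of 2.26 (SE 0.074, limma adjusted p = 4.72e-08). Sde2, which precedes Lefty2, differed by 0.81 (SE 0.064) and was not called.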
